A study of Mus musculus with 31 samples.

Results

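Wild-type NK cells exposed to TGFB1 for 4 h were compared with unstimulated wild-type NK cells, gene by gene, in RNA-seq count data. Natural killer (NK) cells, a kind of innate lymphocyte, kill infected and tumour cells, and TGFB1 is the cytokine TGF-β1. The comparison took every library whose labels give the wild-type genotype and 4 h of TGFB1 or no stimulation, which were 6 of the 31 mouse libraries of the series. It covered the autosomal genes that passed a filter on low counts, 9751 of the 10275 genes tested. The libraries were 2 of wild-type cells after 4 h of TGFB1, carrying replicate numbers 1 and 4 and called library 1 and library 4 here, and 4 libraries of unstimulated wild-type cells, numbered 1 to 4. Set beside them were 4 libraries of wild-type cells after 24 h of TGFB1, 3 libraries at 4 h and 3 unstimulated from cells labelled TGFBRII KO (the TGF-β receptor II), and 4 at 4 h and 4 unstimulated from cells labelled CIS KO (the protein encoded by Cish). Replicates are labelled as biological. The labels describe single-cell suspensions of organs, NK cells sorted ex vivo, RNA extraction and a directional library kit. The labels name no strain, sex, age, organ, knockout allele, TGFB1 dose or culture medium. No group was cultured for 4 h without TGFB1, so time in culture and TGFB1 cannot be told apart within wild-type cells.

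TGF-β ligands bind the type II receptor TGFBR2, which recruits and activates the type I receptor TGFBR1. The kinase of TGFBR1 phosphorylates SMAD2 and SMAD3, which join SMAD4, enter the nucleus and regulate genes together with partner factors. Among the best known direct targets are the pathway's own inhibitors, such as SMAD7, SKI, SKIL and PMEPA1. In NK cells, TGF-β is known for restraining activation and growth driven by interleukin-15 and for favouring features of type 1 innate lymphoid cells and tissue-resident cells. CIS is a suppressor of cytokine signalling that limits the response of NK cells to interleukin-15.

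Over the autosomal genes, 681 were higher and 491 lower after 4 h at an adjusted p under 0.05 (edgeR's quasi-likelihood test, Benjamini-Hochberg adjustment over all genes tested). Over all genes tested 1226 were called, and 583 without library 1. Of these 1226 calls 709 were higher and 517 lower, against 527 and 751 with library size as the only scaling, which moves the median of all genes by -0.10 on the log2 scale, and 623 and 275 with DESeq2. As shares of all genes tested, 6.90% were called higher and 5.03% lower. These shares, not matched for gene abundance, are the background for every list below. Of the autosomal calls, 210 higher and 186 lower genes changed at least 2-fold, 68 and 42 at least 4-fold, and 27 and 11 at least 8-fold. The 2 libraries at 4 h lay wholly outside the range of the 4 unstimulated libraries for 635 of the 681 higher genes and 486 of the 491 lower genes, against 36.1% of all autosomal genes tested. Changes are given as log2 fold changes with their standard error, and levels as CPM, the count as a share of the library scaled up by a fixed factor, after TMM scaling. These CPM are not divided by gene length, so levels are compared between libraries and not between genes. Because bulk RNA was measured, fewer cells of a type and less RNA per cell cannot be told apart in any of these values.

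Library totals ran from 297561 to 1403005 counts in the 31 libraries, with a median of 736193. The library with the smallest total of the series was wild-type 4 h library 1, with 297561 counts, and library 4 had 806473 counts, against 712432 to 1135104 counts in the 4 unstimulated libraries. Library 1 also stood apart in how its values shifted with gene abundance. Against the mean of the unstimulated libraries, the median log2 ratio over the 1 of 5 abundance groups of genes with the highest mean CPM was 0.27 in 4 h library 1 and 0.07 in 4 h library 4. Over the group with the lowest mean CPM it was -0.41 in library 1 and -0.08 in library 4. Calls were spread unevenly too. Of the 1950 genes in the highest group 296 were called higher and 66 lower, against 67 and 65 of the 1951 in the lowest. The background shares are thus not those of lists made up of abundant genes. Among unstimulated libraries, library 3 leaned the other way, with -0.15 over the highest of these groups and 0.19 over the lowest. The part of this shift in the calls was not tested beyond the fits without each library and a fit with log2 depth as a covariate. With that covariate 1103 genes were called, 908 of them also called without it. List medians went from 0.36 to -0.16 for cytotoxic genes, 0.22 to -0.02 for activating receptors and 0.28 to 0.05 for NK-cell markers. They went from 0.49 to 0.47 for TGF-β feedback genes and from -0.74 to -0.79 for cholesterol synthesis. The gene families of Khdc1b, Apol9b, the granzymes, the Gbp and Klrb1 genes and the immunoglobulin constant regions hold near-identical copies, and how reads shared between copies were counted is not given, so their values are less certain. Of the autosomal calls, 322 higher and 217 lower genes were also called without library 1, 395 and 186 without library 4, and 175 and 100 in all 3 fits. Of the genes called higher, 7 turned sign without library 4, and 0 without library 1; of those called lower, 0 turned sign without either.

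**Figure D1:**
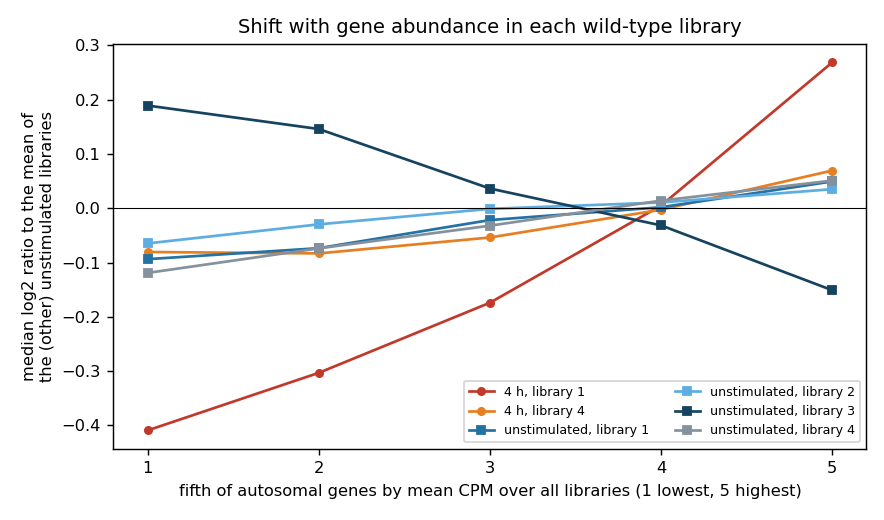
Median log2 ratio of each wild-type library to the mean of the unstimulated libraries (for an unstimulated library, the other 3), with 1 CPM added, in 5 groups of autosomal genes ordered by mean CPM. The line of 4 h library 1 climbs from -0.41 to 0.27 across the groups, while the other 5 libraries stay between -0.15 and 0.19.

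Tgfbr2 and Cish, the genes that the knockout labels name, were both higher after 4 h in wild-type cells. Tgfbr2 (chr9:116087695-116175363 in GRCm38.p6, the build of all positions given) was at 361 and 319 CPM at 4 h, against 250.3, 211, 189 and 200.3 CPM unstimulated. Cish was at 289 and 204 CPM at 4 h, against 175, 151, 129.9 and 174 CPM unstimulated. All values at 4 h lay above all unstimulated values for both genes, with log2 changes of 0.66 ± 0.15 for Tgfbr2 (edgeR adjusted p = 0.00293) and 0.58 ± 0.14 for Cish (edgeR adjusted p = 0.00512). Without library 1 neither was called, at 0.58 for Tgfbr2 (edgeR adjusted p = 0.0516) and 0.38 for Cish (edgeR adjusted p = 0.176). As a check of the labels, Cish was at 35.7 to 49.4 CPM at 4 h and 18.0 to 33.4 CPM unstimulated in the libraries labelled CIS KO, below every wild-type library. Tgfbr2 was at 199 to 276.5 CPM at 4 h and 221 to 237 CPM unstimulated in the libraries labelled TGFBRII KO. At 4 h these libraries were below both wild-type libraries, and unstimulated they lay inside the wild-type range. The deposited counts are per gene and the allele is not given, so this level does not check that label, and those cells are called by their label throughout.

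Start-site sequences are shown for the 3 genes of the TGF-β feedback, ligand, receptor and residency lists with the largest rise that have an entry, and for the cholesterol synthesis gene with the largest fall. Each runs 5′ to 3′ from 250 bases before to 50 bases after the RefSeq start of transcription in GRCm38.p6 on the gene's strand. In the first 3, capitals mark CAGAC, the SMAD-binding box, and GGCGC, a GC-rich SMAD motif, on either strand. In Hsd17b7 they mark CCAAT, the box bound by NF-Y, a partner of SREBP factors at sterol genes, on either strand.
Nt5e (CD73), chr9:88327359-88327658, plus strand: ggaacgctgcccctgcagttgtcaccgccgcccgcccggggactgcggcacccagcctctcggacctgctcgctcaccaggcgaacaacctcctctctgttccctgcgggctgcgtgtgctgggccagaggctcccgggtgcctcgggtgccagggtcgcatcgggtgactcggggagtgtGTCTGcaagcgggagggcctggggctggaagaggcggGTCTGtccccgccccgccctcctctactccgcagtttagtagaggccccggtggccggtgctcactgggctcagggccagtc
Ski, chr4:155222486-155222785, minus strand: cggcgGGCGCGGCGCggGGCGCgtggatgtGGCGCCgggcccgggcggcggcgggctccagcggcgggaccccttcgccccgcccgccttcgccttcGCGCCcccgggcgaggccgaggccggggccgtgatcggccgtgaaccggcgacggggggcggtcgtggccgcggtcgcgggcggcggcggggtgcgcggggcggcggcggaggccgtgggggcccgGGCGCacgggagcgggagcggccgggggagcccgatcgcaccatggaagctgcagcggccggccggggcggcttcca
Spsb1, chr4:149954957-149955256, minus strand: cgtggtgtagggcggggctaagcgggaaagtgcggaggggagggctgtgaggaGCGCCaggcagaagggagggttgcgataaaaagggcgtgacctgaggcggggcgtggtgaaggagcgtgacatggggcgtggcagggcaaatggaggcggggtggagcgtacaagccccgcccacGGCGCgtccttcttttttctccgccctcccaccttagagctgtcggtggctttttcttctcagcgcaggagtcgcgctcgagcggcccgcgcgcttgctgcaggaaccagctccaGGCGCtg
Hsd17b7, chr1:169969156-169969455, minus strand: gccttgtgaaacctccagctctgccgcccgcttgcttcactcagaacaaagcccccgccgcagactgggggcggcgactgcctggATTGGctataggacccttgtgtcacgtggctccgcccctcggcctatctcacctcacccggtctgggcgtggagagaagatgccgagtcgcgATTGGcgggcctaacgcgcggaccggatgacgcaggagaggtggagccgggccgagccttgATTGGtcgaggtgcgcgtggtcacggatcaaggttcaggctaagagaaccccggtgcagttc

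Nt5e holds 2 copies of CAGAC and no GGCGC in this window, Ski holds 7 copies of GGCGC and no CAGAC, and Spsb1 holds 3 copies of GGCGC and no CAGAC. Hsd17b7 holds 3 copies of CCAAT and also 2 of CAGAC, left in lower case. Windows were also read for 2 other sterol genes called lower and are not shown, and these hold 2 and 0 copies of CCAAT. Over the 7757 windows of tested autosomal genes, 46.8% hold CAGAC, 67.1% hold GGCGC and 39% hold CCAAT, so each of these letters is common in such windows. The longer SMAD palindrome GTCTAGAC, in 0.245% of those windows, and the sterol response element TCACNCCAC, in 0.941%, are in none of the 4 windows shown. Matches were counted on both strands, and GGCGC overlaps its own reverse complement where it runs into GGCGCC. Pmepa1, Ldlrad4, Tgfb3 and Sqle have no entry. A match is a run of letters and was not tested as a binding site.

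Of 23 tested inhibitors and modulators of the TGF-β pathway, the feedback list, 9 were called higher, 0 lower and 14 were not called. That is 39.1% called, with a median log2 change of 0.49, against -0.01 over all autosomal genes. Pmepa1 (chr2:173224458-173276731), a membrane protein that binds receptor-activated SMADs and dampens the signal, had the smallest p of the list. It was at 665 and 581 CPM at 4 h, against 22.9, 16.2, 21.8 and 30.4 CPM unstimulated, a change of 27.1-fold (log2 4.76 ± 0.25, edgeR adjusted p = 8.41e-16). Both libraries at 4 h were thus far above all 4 unstimulated libraries and close to each other.

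Ski, a co-repressor that binds SMAD2, SMAD3 and SMAD4, was at 586 and 569 CPM at 4 h, against 145, 132, 163 and 131 CPM unstimulated (log2 2.00 ± 0.12, edgeR adjusted p = 5.4e-14). Its relative Skil was at 267 and 288 CPM, against 137, 125, 108 and 108 CPM unstimulated (log2 1.23 ± 0.14). Smad7, the inhibitory SMAD that competes for the receptor, was at 128 and 142 CPM, against 39.4, 41.2, 46.9 and 52.5 CPM unstimulated (log2 1.60 ± 0.19). None of these groups overlapped. Ldlrad4, a membrane relative of PMEPA1 that also sequesters SMADs, was at 78.9 and 91.4 CPM, against 7.62, 6.24, 10.9 and 11.1 CPM unstimulated (log2 3.24 ± 0.31). Tgif1, a homeobox co-repressor of SMAD-driven transcription, was at 150.3 and 122 CPM, against 59.7, 59.9, 56.2 and 64.9 CPM unstimulated (log2 1.13 ± 0.13). Spsb1, a SOCS-box protein that targets TGFBR2, was at 18.8 and 50.1 CPM, against 1.27, 0, 1.68 and 2.76 CPM unstimulated, so library 4 held most of this rise. Its log2 change was 4.65 ± 0.51 with both libraries and 3.57 without library 4 (edgeR adjusted p = 0.0129).

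The remaining called members were smaller and rested on library 4. Klf10, a TGF-β inducible zinc-finger factor, was at 78.9 and 122 CPM at 4 h, against 69.9, 52.4, 62.0 and 78.7 CPM unstimulated, with library 1 just above the highest unstimulated value. Smurf2, the ubiquitin ligase that works with SMAD7, was at 93.9 and 140.3 CPM, against 73.7, 69.9, 88.9 and 49.7 CPM unstimulated. Their log2 changes of 0.73 ± 0.19 and 0.80 ± 0.20 became 0.27 (edgeR adjusted p = 0.668) and 0.38 (edgeR adjusted p = 0.546) without library 4. Of the 14 members not called, Nedd9, a docking protein, had a log2 change of 0.12 ± 0.13 and Fkbp1a, which binds the type I receptor, of 0.24 ± 0.16.

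**Figure D2:**
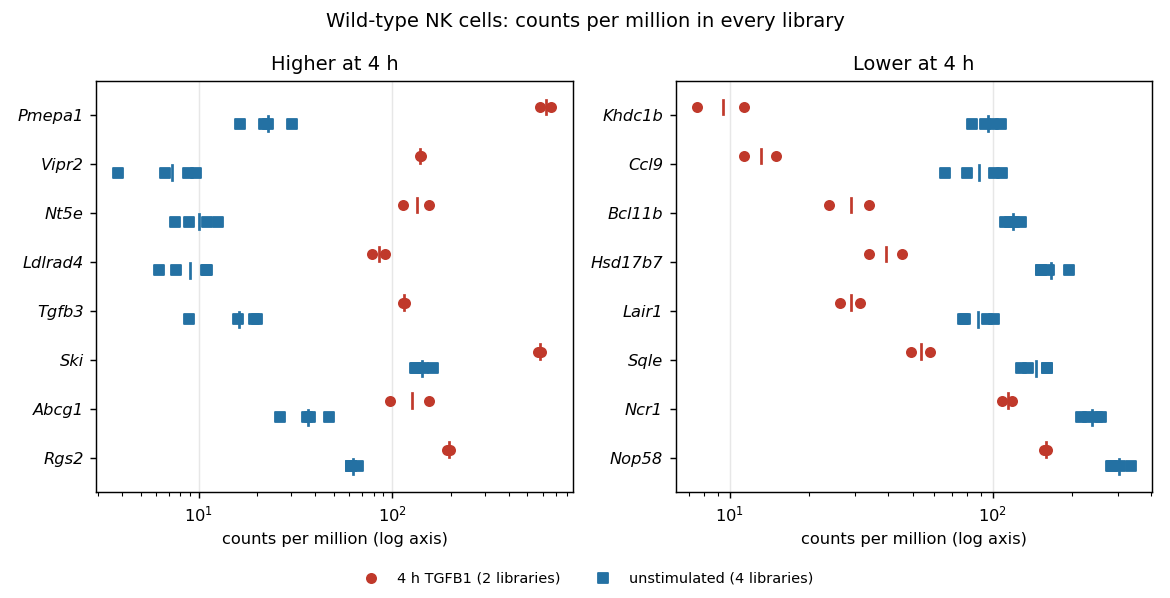
CPM (log axis) of 8 genes called higher and 8 called lower, 1 point for each wild-type library at 4 h (circles, 2 libraries) and unstimulated (squares, 4 libraries), with a tick at each group's mean. In all 16 genes the groups do not overlap; Pmepa1 shows the widest gap, at 665 and 581 CPM against 16.2 to 30.4 CPM.

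Among 15 tested ligands, receptors and activators of the TGF-β family, 4 were higher and 1 lower. Tgfb3 (chr12:86056743-86079041), a TGF-β ligand, was at 116 and 114 CPM at 4 h, against 8.90, 19.98, 15.9 and 19.3 CPM unstimulated, a change of 7.12-fold (log2 2.83 ± 0.21, edgeR adjusted p = 3.23e-12). Tgfb1 itself was at 26.3 and 42.6 CPM, against 17.8, 12.5, 16.8 and 15.2 CPM unstimulated (log2 1.25 ± 0.34, edgeR adjusted p = 0.0121). The groups did not overlap for either ligand. Nrros, which holds latent TGF-β at the surface of myeloid cells, fell to 78.9 and 68.9 CPM, against 123, 134, 112 and 131 CPM unstimulated (log2 -0.79 ± 0.15). Tgfbr2 and Furin, the protease that matures TGF-β precursors, were the other members called higher, and the type I receptor Tgfbr1 was not called, at a log2 change of -0.49 ± 0.21. Without library 4, Tgfb1 was at 0.74 (edgeR adjusted p = 0.479) and Nrros at -0.66 (edgeR adjusted p = 0.157); without library 1, 2 members were higher, and Furin was at 0.26 (edgeR adjusted p = 0.598). The calls of Tgfbr2 and Furin also rested on that library.

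The receptor-activated SMADs moved down while their inhibitor moved up. Smad3 was at 33.8 and 23.8 CPM at 4 h, against 57.2, 59.9, 84.7 and 62.2 CPM unstimulated (log2 -1.33 ± 0.35, edgeR adjusted p = 0.0111). Smad2 was at 75.2 and 110.2 CPM, against 122, 165, 156 and 139.5 CPM unstimulated (log2 -0.55 ± 0.17, edgeR adjusted p = 0.0267). No library at 4 h reached an unstimulated value for either. Smad4, the shared partner, was at 124 and 169 CPM, against 154, 179, 179 and 138 CPM unstimulated and was not called, at -0.08 ± 0.13. Of 5 tested SMADs, 0 were called higher and 2 lower. Smad3 was at -0.99 without library 4 (edgeR adjusted p = 0.284), and Smad2 was at -0.42 without library 1 (edgeR adjusted p = 0.225), -0.49 without unstimulated library 2 (edgeR adjusted p = 0.0664) and -0.50 without unstimulated library 3 (edgeR adjusted p = 0.0717).

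The largest rises by fold belonged to genes with almost no counts in unstimulated cells. Igha, the constant region gene of immunoglobulin A, known elsewhere as a TGF-β-inducible germline transcript in B cells, was at 93.9 and 68.9 CPM at 4 h, against 0, 1.25, 0 and 2.76 CPM unstimulated. Pacsin1, a membrane-bending adaptor of endocytosis, was at 60.1 and 80.2 CPM, against 0, 2.497, 0.838 and 0 CPM unstimulated. Each had 80 counts over both libraries at 4 h and 3 counts over the 4 unstimulated libraries, a ratio of 87.8 after scaling to library size with an exact 95% interval of 29 to 435 that covers counting error only. Tbc1d16, a regulator of Rab GTPases, was at 30.1 and 45.1 CPM, against 2.54, 0, 0.838 and 0 CPM unstimulated, or 44 counts against 3 counts, a ratio of 48.3 (15.5 to 243). These genes went to a level seen in both libraries at 4 h, although their unstimulated level is known from 3 counts each. The fitted log2 changes were 6.22 for Igha, 6.17 for Pacsin1 and 5.29 for Tbc1d16, and they move by more than 1.5-fold with single unstimulated libraries: Igha was at 7.17 without library 4, Pacsin1 at 7.09 without library 2 and Tbc1d16 at 6.24 without library 1.

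Surface receptors were among the genes rising from low levels. Vipr2, a receptor for vasoactive intestinal peptide that couples to cyclic AMP, was at 139 and 140.3 CPM at 4 h, against 3.81, 8.74, 6.71 and 9.67 CPM unstimulated, a change of 19.2-fold (log2 4.26 ± 0.27, edgeR adjusted p = 1.46e-13). Cd40, the co-stimulatory receptor for CD40 ligand, was at 18.8 and 33.8 CPM, against 1.27, 1.25, 1.68 and 4.14 CPM unstimulated (log2 3.74 ± 0.55). Tnfrsf13c, the receptor for the B-cell survival factor BAFF, was at 18.8 and 25.1 CPM, against 1.27, 0, 1.68 and 2.76 CPM unstimulated (log2 3.86 ± 0.60). Both TNF-family receptors are best known from B cells and were low in every library. Gpr155, a lysosomal cholesterol sensor, was at 30.1 and 25.1 CPM, against 2.54, 0, 2.51 and 0 CPM unstimulated (log2 4.07 ± 0.57). Ncmap, a protein of myelinating cells, was at 33.8 and 51.4 CPM, against 1.27, 0, 3.35 and 0 CPM unstimulated (log2 4.84 ± 0.59). Apol9b, an apolipoprotein L family member, was at 18.8 and 38.8 CPM, against 2.54, 2.497, 3.35 and 1.38 CPM unstimulated (log2 3.58 ± 0.49). All 6 stayed called without any of the 6 wild-type libraries, but Cd40 was at 3.12 and Apol9b at 2.79 without library 4, Gpr155 at 4.69 and Ncmap at 6.23 without unstimulated library 3.

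Ighm, the constant region gene of immunoglobulin M, rose to 90.2 and 130.3 CPM at 4 h, against 16.5, 19.98, 34.4 and 31.8 CPM unstimulated (log2 2.15 ± 0.27, edgeR adjusted p = 5.12e-07). It was the one of 18 B-cell markers that passed the filter on low counts. The other markers were near 0: the summed level of the list was 93.9 to 133 CPM at 4 h, against 28.0 to 44.4 CPM unstimulated, and 15 of the 18 had 0 counts in both libraries at 4 h and 10 of the 18 had 0 counts in the 4 unstimulated libraries. Of 15 tested NK-cell markers 2 were higher and 1 lower (median log2 change 0.28), at summed levels of 4998 and 8158 CPM at 4 h, against 4226 to 5416 CPM unstimulated. The higher count was 0 without library 1 or unstimulated library 2 or 3 or with library size as the only scaling, and 7 without library 4. Of those not called, Eomes was at 417 and 334 CPM, against 374, 387, 347 and 366 CPM unstimulated, and Klrb1c (NK1.1) was at 857 and 694 CPM, against 765, 735, 726 and 818 CPM unstimulated. Of 10 tested T-cell markers 1 was higher (Lat) and 1 lower (Bcl11b), at summed levels of 896 to 1071 CPM against 957 to 1062 CPM unstimulated. Of 3 tested myeloid markers 0 were called, at 229 to 263 CPM against 215 to 231 CPM unstimulated, and 14 had 0 counts in each group. Of 5 tested stromal and epithelial markers 1 was called, Pecam1, an adhesion receptor that leukocytes also carry, at 338 and 279 CPM against 217, 202, 182 and 204 CPM unstimulated. Their summed level was 438 to 485 CPM at 4 h, against 289 to 351 CPM unstimulated. Of 4 tested ILC2 and ILC3 markers 1 was higher, Gata3, at 207 and 225 CPM against 186, 146, 127 and 157 CPM unstimulated, with sums of 567 to 635 CPM against 416 to 564 CPM unstimulated. Erythroid and platelet markers summed to 0 to 3.76 CPM at 4 h, against 1.25 to 2.51 CPM unstimulated, with 0 members tested. The calls of Lat and Gata3 fell away without library 1, at 0.49 (edgeR adjusted p = 0.0895) and 0.55 (edgeR adjusted p = 0.0853), without library 4, at 0.37 (edgeR adjusted p = 0.403) and 0.43 (edgeR adjusted p = 0.302), and without unstimulated library 2 or 3. The part of other cell types in these results was not tested.

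Genes with large falls had unlike roles, and Syna (log2 -2.45), Bcl11b (log2 -2.16), Hsd17b7 (log2 -1.99) and Dusp7 (log2 -1.68), described with other groups, were among them. Khdc1b, a member of a KH-domain family, was at 7.52 and 11.3 CPM at 4 h, against 100.4, 83.6, 93.9 and 108 CPM unstimulated (log2 -3.20 ± 0.38, edgeR adjusted p = 2.41e-07). Ccl9, a chemokine of the CC family, was at 15.0 and 11.3 CPM, against 66.1, 79.9, 109 and 101 CPM unstimulated (log2 -2.86 ± 0.39). Hbegf, a growth factor that binds the EGF receptor, was at 3.76 and 8.77 CPM, against 43.2, 46.2, 49.5 and 40.1 CPM unstimulated (log2 -2.57 ± 0.43). Neither group overlapped in any of the 3 genes. C5ar1, the receptor for complement fragment C5a, had 3 counts over the 2 libraries at 4 h, against 90 counts over the 4 unstimulated libraries, and the unstimulated level was higher by a ratio of 9.11 (exact 95% interval 3.02 to 45, counting error only). Mmp9, a matrix metalloproteinase, was at 52.6 and 108 CPM, against 219, 207, 194 and 267 CPM unstimulated (log2 -1.28 ± 0.19). Grasp, a scaffold of metabotropic glutamate receptors, was at 3.76 and 7.52 CPM, against 29.2, 37.5, 27.7 and 34.5 CPM unstimulated (log2 -2.26 ± 0.42). Without library 4 the depth is that of library 1 alone: C5ar1 was no longer called (log2 -2.71, edgeR adjusted p = 0.11), while Hbegf was at -3.53, Mmp9 at -2.06 and Grasp at -3.03 and stayed called.

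Genes associated with tissue residency and type 1 innate lymphoid cells were among the early risers. Of 22 tested members 7 were higher and 1 lower (median log2 change 0.50). Nt5e (chr9:88327609-88372089 for the gene, start-site sequence above), which encodes CD73 and makes adenosine from AMP, was at 154 and 114 CPM at 4 h, against 8.90, 12.5, 7.54 and 11.1 CPM unstimulated, a change of 12.9-fold (log2 3.69 ± 0.26, edgeR adjusted p = 2.36e-12). Itga1, the CD49a chain of a collagen receptor, was at 274 and 312 CPM, against 193, 186, 231 and 199 CPM unstimulated (log2 0.55 ± 0.15, edgeR adjusted p = 0.0153). Cd69, which retains lymphocytes in tissue, was at 169 and 155 CPM, against 111, 111, 104 and 119 CPM unstimulated (log2 0.53 ± 0.13). Runx3, a transcription factor of resident lymphocytes and a partner of SMADs, was at 740.3 and 546 CPM, against 375, 379.5, 324 and 358 CPM unstimulated (log2 0.82 ± 0.14, edgeR adjusted p = 6.5e-05). The integrin gene Itgae, which encodes CD103, was at 7.52 and 7.52 CPM at 4 h, against 5.08, 1.25, 4.19 and 6.91 CPM unstimulated and was not called (log2 0.79 ± 0.70, edgeR adjusted p = 0.502). Itga1 was at 0.43 without library 4 (edgeR adjusted p = 0.249) and 0.45 with library size as the only scaling (edgeR adjusted p = 0.0655). Cd69 was at 0.48 without library 1 (edgeR adjusted p = 0.0613) and 0.61 without library 4 (edgeR adjusted p = 0.0805). The gene called lower, Tmem176b, lost its call without either 4 h library and without unstimulated library 2 or 3.

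In the adenosine pathway, 2 of 10 tested genes were higher and 1 lower. Beside Nt5e, the nucleoside transporter Slc29a3 was at 150.3 and 116 CPM at 4 h, against 47.0, 56.2, 42.8 and 47.0 CPM unstimulated (log2 1.41 ± 0.17, edgeR adjusted p = 3.63e-07). Entpd1, the CD39 enzyme upstream of CD73, was at 154 and 277 CPM, against 253, 225, 295 and 235 CPM unstimulated. It was not called (log2 -0.13 ± 0.18), and the difference between the 2 enzymes was not tested. The gene called lower, the transporter Slc29a1, lost its call without 5 of the 6 libraries in turn.

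Regulators of G protein and cyclic AMP signalling held the largest share of higher genes of any list with 20 or more tested members, 11 of 24, with 3 lower. Regulators of G protein signalling, which speed the shut-off of chemokine and other receptors, formed much of the group. Rgs2 was at 199 and 192 CPM at 4 h, against 61.0, 61.2, 66.2 and 60.8 CPM unstimulated (log2 1.63 ± 0.16, edgeR adjusted p = 2.25e-09). Rgs1 was at 489 and 247 CPM, against 128, 134, 82.2 and 124 CPM unstimulated (log2 1.56 ± 0.22), and Rgs16 at 327 and 162 CPM, against 116, 83.6, 64.5 and 92.5 CPM unstimulated (log2 1.32 ± 0.24). For both of these, library 1 was at about double the level of library 4, and library 4 alone was still above every unstimulated library. Rgs10 was at 56.4 and 62.6 CPM, against 12.7, 15.0, 15.9 and 11.1 CPM unstimulated (log2 2.11 ± 0.29). Rgs18, in contrast, was at 30.1 and 20.04 CPM, against 69.9, 53.7, 56.2 and 48.3 CPM unstimulated (log2 -1.32 ± 0.33, and -0.92 without library 4, edgeR adjusted p = 0.279).

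Of the enzymes that break down cyclic AMP, Pde4a was at 222 and 238 CPM at 4 h, against 111, 111, 123 and 128 CPM unstimulated (log2 0.97 ± 0.12). Pde4d was at 30.1 and 108 CPM, against 15.2, 4.99, 10.1 and 8.29 CPM unstimulated, so its rise came mostly from library 4. Its log2 change was 3.02 ± 0.39 with both libraries and 1.61 without library 4 (edgeR adjusted p = 0.15). Other receptors fell. Gpr65, a proton-sensing receptor, was at 52.6 and 92.7 CPM, against 177, 161, 192 and 173 CPM unstimulated (log2 -1.12 ± 0.21, and -1.74 without library 4). Ptger2, a prostaglandin E2 receptor that raises cyclic AMP, was at 33.8 and 30.1 CPM, against 63.5, 62.4, 63.7 and 76.0 CPM unstimulated (log2 -1.08 ± 0.25, and -0.97 without library 4, edgeR adjusted p = 0.151). Without library 4 the list held 8 higher and 1 lower genes.

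Of 17 tested receptors for homing and exit, 5 were higher and 1 lower. Itgb7, the integrin chain that pairs with CD103, was at 237 and 208 CPM at 4 h, against 109, 135, 111 and 128 CPM unstimulated (log2 0.86 ± 0.19, edgeR adjusted p = 0.00281). Cxcr4, the receptor for the marrow chemokine CXCL12, was at 18.8 and 26.3 CPM, against 3.81, 6.24, 1.68 and 4.14 CPM unstimulated (log2 2.62 ± 0.47). Gpr183, an oxysterol receptor that positions lymphocytes, was at 15.0 and 21.3 CPM, against 3.81, 1.25, 4.19 and 2.76 CPM unstimulated (log2 2.57 ± 0.66). The libraries did not overlap in these 3 genes. Cd44, the hyaluronan receptor, was at 342 and 276 CPM, against 180.5, 202, 183 and 221 CPM unstimulated (log2 0.62 ± 0.15). Ccr2, the chemokine receptor with the most counts of the list, was at 722 and 542 CPM, against 738, 667, 558 and 626 CPM unstimulated and was not called. Cd44 was at 0.48 without library 1 (edgeR adjusted p = 0.111), and Cxcr4 and Gpr183 were at 2.27 (edgeR adjusted p = 0.0679) and 2.21 (edgeR adjusted p = 0.243) without library 4. The gene called lower, the atypical chemokine receptor Ccrl2, lost its call without 5 of the 6 libraries in turn.

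Several transcription factors changed, while the 2 T-box factors that define NK cells were not called. Eomes had a log2 change of 0.00 ± 0.12 and Tbx21 of 0.02 ± 0.17, the second at 192 and 123 CPM at 4 h, against 156, 145, 127 and 149 CPM unstimulated. Of 41 tested transcription factors of NK and innate lymphoid cells, 14 were higher and 4 lower, and Runx3 had the smallest p of the risers. Tox, needed early in NK development, was at 26.3 and 45.1 CPM, against 100.4, 92.4, 92.2 and 109 CPM unstimulated (log2 -1.29 ± 0.31, edgeR adjusted p = 0.00443). Bcl11b, listed with T-cell markers and a factor of T cells and innate lymphoid cells, was at 33.8 and 23.8 CPM, against 121, 116, 111 and 128 CPM unstimulated (log2 -2.16 ± 0.32, edgeR adjusted p = 8.82e-06). Nfil3, which starts NK development, was at 120.2 and 167 CPM, against 108, 96.1, 113 and 98.1 CPM unstimulated (log2 0.54 ± 0.14). Id3, an inhibitor of E proteins, was at 15.0 and 31.3 CPM, against 8.90, 8.74, 5.87 and 5.52 CPM unstimulated (log2 1.85 ± 0.49). The list's 14 higher genes were 7 without library 1, 4 without library 4 and 9 without unstimulated library 3, and the 4 lower genes were 2 without library 1 or unstimulated library 3. With library size as the only scaling, 8 were higher. Without library 4, Tox was at -1.89 and still called, but Nfil3 was at 0.20 (edgeR adjusted p = 0.704) and Id3 at 1.05 (edgeR adjusted p = 0.521).

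Several activating receptors fell within 4 h. Ncr1 (NKp46, chr7:4337715-4345184), the receptor that marks NK cells across mammals, was at 109 and 119 CPM at 4 h, against 250.3, 231, 216 and 258 CPM unstimulated (log2 -1.04 ± 0.14, edgeR adjusted p = 2.9e-06). Slamf7, a self-ligand receptor of the SLAM family, was at 113 and 168 CPM, against 282, 258, 368 and 265 CPM unstimulated (log2 -0.99 ± 0.21). Crtam, an adhesion receptor of activated cytotoxic cells, was at 41.3 and 57.6 CPM, against 107, 97.4, 84.7 and 135 CPM unstimulated (log2 -0.97 ± 0.23). Both libraries at 4 h were below all unstimulated libraries in all 3. The adaptor genes Tyrobp and Fcer1g were called higher, at 936 and 448 CPM and at 838 and 406 CPM, against 308 to 439 CPM and 254 to 388 CPM unstimulated. In these adaptors library 4 sat next to the top of the unstimulated range and library 1 far above it. Of 29 tested activating receptors and adaptors, 8 were higher and 3 lower, but without library 1 the counts were 0 higher and 2 lower, and without unstimulated library 2 or 3 they were 5 higher. Without library 1, Tyrobp was at 0.16 (edgeR adjusted p = 0.841), Fcer1g at 0.25 (edgeR adjusted p = 0.749) and Crtam at -0.86 (edgeR adjusted p = 0.0514). Tyrobp and Fcer1g also lost the call without unstimulated library 2 or 3, and they are among the abundant genes that lie high in library 1.

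Among inhibitory receptors, Klrb1b (NKR-P1B) was at 473 and 412 CPM at 4 h, against 244, 246, 262 and 269 CPM unstimulated (log2 0.78 ± 0.12, edgeR adjusted p = 1.91e-05). Lair1, a collagen receptor, was at 26.3 and 31.3 CPM, against 95.3, 101, 77.1 and 78.7 CPM unstimulated (log2 -1.54 ± 0.25, edgeR adjusted p = 2.86e-05). One inhibitory receptor thus rose and another fell, each with no overlap of libraries. Of 23 tested members, 3 were higher and 1 lower, with 1 higher without library 1.

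Among genes of the killing machinery, most calls depended on 1 library. Serpinb9, the inhibitor that protects killer cells from their own granzyme B, fell to 180.4 and 251 CPM at 4 h, against 492, 417, 421 and 419 CPM unstimulated (log2 -0.96 ± 0.16, edgeR adjusted p = 3.7e-05). Prf1, which encodes perforin, was at 177 and 124 CPM, against 178, 174, 161 and 174 CPM unstimulated and was not called (log2 -0.27 ± 0.21). Gzmb, granzyme B, was at 1188 and 598 CPM, against 757, 667, 477 and 691 CPM unstimulated and was not called either (log2 0.42 ± 0.23). Gzma, granzyme A, was at 1649.7 and 688 CPM, against 656, 629, 437 and 671 CPM unstimulated, and Gzmc, granzyme C, at 1646 and 626 CPM, against 671, 634, 460.2 and 677 CPM unstimulated. In all 3 granzymes library 1 was the highest of the 6 libraries and library 4 lay in or beside the unstimulated range. Gzma was called higher (log2 0.93 ± 0.27) and Gzmc too (log2 0.85 ± 0.27), but without library 1 they were at 0.20 (edgeR adjusted p = 0.812) and 0.03 (edgeR adjusted p = 0.976), and without unstimulated library 3 at 0.80 (edgeR adjusted p = 0.0656) and 0.73 (edgeR adjusted p = 0.107). Of 22 tested cytotoxic genes, 5 were higher and 1 lower, but the counts were 0 and 1 without library 1, 10 and 1 without library 4, 3 and 1 without unstimulated library 2, 1 and 1 without unstimulated library 3, and 2 and 3 both with library size as the only scaling and with depth as a covariate.

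Immediate early factors were higher at 4 h, 7 of 25 tested with 0 lower. Egr1, a zinc-finger factor of growth-factor signals, was at 308 and 236 CPM at 4 h, against 169, 117, 121 and 149 CPM unstimulated (log2 0.93 ± 0.17, edgeR adjusted p = 0.000264). Zfp36l2, an RNA-binding protein that speeds decay of cytokine transcripts, was at 113 and 110.2 CPM, against 69.9, 48.7, 48.6 and 59.4 CPM unstimulated (log2 0.99 ± 0.18). Junb and Jun, AP-1 subunits that also bind SMAD proteins, were at 357 and 237 CPM against 165, 139.8, 90.5 and 139.5 CPM unstimulated, and at 278 and 336 CPM against 222, 212, 189 and 218 CPM unstimulated. The libraries did not overlap in these 4 genes, whereas Nfkbia, the NF-κB inhibitor, overlapped and was not called, at 752 and 383 CPM against 424, 406, 306 and 439 CPM unstimulated. Without library 1, 3 members were called and Junb was at 0.84 (edgeR adjusted p = 0.0585, against 1.10 ± 0.23 with it). Without library 4, Jun was at 0.41 (edgeR adjusted p = 0.234, against 0.58 ± 0.14 with it). Of the phosphatases that switch off MAP kinases, Dusp7 fell to 11.3 and 22.5 CPM, against 68.6, 67.4, 52.0 and 67.7 CPM unstimulated (log2 -1.68 ± 0.28, and -2.47 without library 4). Of 18 tested phosphatases of this family, 2 were higher and 3 lower, and the higher count was 1 without either 4 h library.

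Of 34 tested genes of the BCL2 family and the p53 response, 6 were higher and 1 lower. The BH3-only gene Bmf, a promoter of cell death released from the cytoskeleton, was at 113 and 137 CPM at 4 h, against 35.6, 54.9, 54.5 and 56.6 CPM unstimulated (log2 1.34 ± 0.21, edgeR adjusted p = 1.9e-05). Bcl2l11 (BIM), another BH3-only gene, was at 767 and 676 CPM, against 480.4, 397, 379.8 and 449 CPM unstimulated (log2 0.75 ± 0.12). Bcl2, the survival protein that both antagonise, was at 519 and 479.8 CPM, against 306, 341, 366 and 319 CPM unstimulated (log2 0.57 ± 0.11). Trp53inp1, a p53 target of stress and autophagy, was at 248 and 286 CPM, against 152, 109, 123 and 144 CPM unstimulated (log2 1.05 ± 0.16). No library overlapped in any of the 4, and Mcl1, a survival gene controlled by interleukin-15, was not called (log2 0.32 ± 0.14). The gene called lower, Zmat3, lost its call without either 4 h library and without unstimulated library 2 or 3.

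Of the proliferation genes called at 4 h, those of replication and mitosis were all lower. Cdkn1b, the CDK inhibitor p27, was at 162 and 215 CPM, against 116, 101, 116 and 108 CPM unstimulated (log2 0.84 ± 0.15), and Mxi1, an antagonist of MYC, was at 56.4 and 127 CPM, against 36.9, 31.2, 45.3 and 42.8 CPM unstimulated (log2 1.39 ± 0.24). Of 28 tested DNA replication genes 0 were higher and 5 lower, and of 30 tested mitosis genes 0 were higher and 4 lower. The list medians were -0.43 and -0.41. These lower shares of 17.9% and 13.3% stand against 5.03% lower over all genes tested. Ccnb1, cyclin B1, was at 37.6 and 87.7 CPM, against 133, 166, 145 and 127 CPM unstimulated (log2 -0.97 ± 0.22), with library 1 lower than library 4. Mcm3, a subunit of the replicative helicase, was at 210.4 and 197 CPM, against 306, 267, 231 and 211 CPM unstimulated and was not called (log2 -0.33 ± 0.14). Top2a, the mitotic topoisomerase, was at 582 and 592 CPM, against 667, 759, 669 and 552 CPM unstimulated and was not called (log2 -0.17 ± 0.16). Without library 1, 1 gene of each list was lower and Ccnb1 was at -0.72 (edgeR adjusted p = 0.0524); without library 4 Ccnb1 was at -1.93, and Cdkn1b and Mxi1 were at 0.55 (edgeR adjusted p = 0.149) and 0.51 (edgeR adjusted p = 0.483). For the replication genes the count of 5 was also 3 without library 4 and 2 without unstimulated library 2 or 3.

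Cholesterol synthesis had the largest share of lower genes of the lists tested. Of 19 tested enzymes 13 were lower and 0 higher (68.4% called, median log2 change -0.74, against a background of 5.03% lower). Hsd17b7 (chr1:169949535-169969242 for the gene, start-site sequence above), a 3-ketosteroid reductase of the pathway, was at 33.8 and 45.1 CPM at 4 h, against 164, 152, 195 and 153 CPM unstimulated (log2 -1.99 ± 0.22, edgeR adjusted p = 4.39e-08). Sqle, squalene epoxidase, was at 48.9 and 57.6 CPM, against 136, 161, 161 and 128 CPM unstimulated (log2 -1.42 ± 0.15, edgeR adjusted p = 1.3e-08). Cyp51, lanosterol demethylase, was at 237 and 247 CPM, against 529.9, 503, 536 and 547 CPM unstimulated (log2 -1.12 ± 0.15), and Hmgcs1, a synthase early in the pathway, was at 259 and 258 CPM, against 473, 504, 402 and 477 CPM unstimulated (log2 -0.84 ± 0.17). In each of these 4 both libraries at 4 h were below all 4 unstimulated libraries and close to each other. Mvd and Fdps, steps between mevalonate and squalene, were not called, with log2 changes of -0.01 ± 0.17 and -0.09 ± 0.19. The count of 13 was 10 without library 1 and 8 without library 4.

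Other targets of the sterol sensors moved in both directions. Abcg1 (chr17:31057694-31117984), the exporter of cholesterol and a target of LXR receptors, was at 97.7 and 154 CPM at 4 h, against 47.0, 37.5, 36.0 and 26.2 CPM unstimulated (log2 1.88 ± 0.19, edgeR adjusted p = 1.3e-08). Mylip, an LXR-induced ubiquitin ligase, was at 132 and 160.3 CPM, against 118, 76.2, 62.0 and 74.6 CPM unstimulated (log2 0.89 ± 0.21). For both, the 2 libraries at 4 h lay above all 4 unstimulated libraries. Elovl6, a fatty acid elongase, was at 48.9 and 58.9 CPM, against 114, 125, 135 and 87.0 CPM unstimulated (log2 -1.06 ± 0.26). Srebf1, which encodes the SREBP of fatty acid synthesis, was at 154 and 163 CPM, against 125, 83.6, 63.7 and 91.2 CPM unstimulated (log2 0.85 ± 0.28, edgeR adjusted p = 0.0401). Of 29 tested genes of this list 5 were higher and 4 lower; the counts were 2 and 3 without library 1, 1 and 2 without library 4, 3 and 4 without unstimulated library 2 and 2 and 4 without unstimulated library 3. Without library 4, Mylip was at 0.69 (edgeR adjusted p = 0.222), Elovl6 at -1.26 (edgeR adjusted p = 0.0719) and Srebf1 at 0.79 (edgeR adjusted p = 0.287), and Srebf1 lost its call without library 1 and without unstimulated library 2, 3 or 4 as well.

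**Figure D3:**
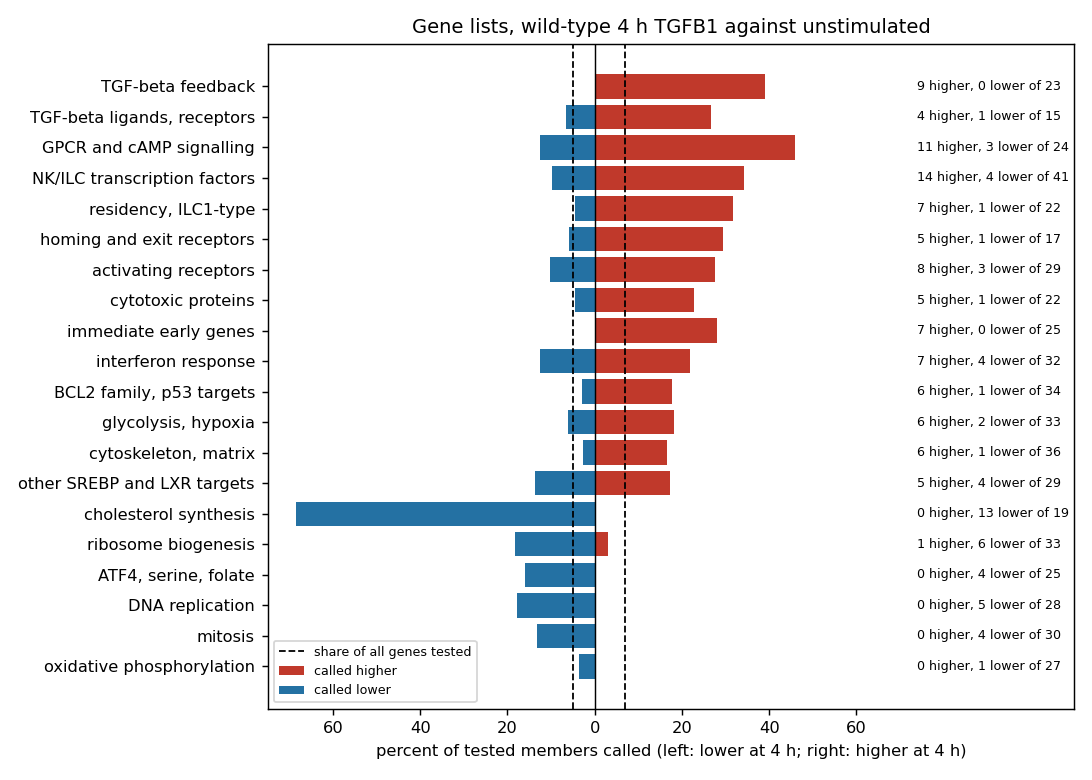
Percent of the tested members of 20 gene lists called higher (right, red) or lower (left, blue) in wild-type cells at 4 h, with counts printed at the right and dashed lines at the shares of all genes tested (6.90% higher, 5.03% lower). The cholesterol synthesis bar reaches 68.4% on the lower side with 0 genes on the higher side, and the TGF-β feedback bar 39.1% on the higher side.

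Ribosome biogenesis genes fell in part. Of 33 tested genes 6 were lower and 1 higher, with a list median of -0.20; the higher gene, Npm1, lost its call without library 1 and without unstimulated library 3 or 4. Nop58, a core protein of nucleolar RNA particles, was at 162 and 157 CPM at 4 h, against 306, 336, 283 and 285 CPM unstimulated (log2 -0.93 ± 0.13, edgeR adjusted p = 1.91e-06). Wdr43, an early assembly factor of the small subunit, was at 177 and 224 CPM, against 376, 409, 408 and 367 CPM unstimulated (log2 -0.92 ± 0.14), and Nolc1, a nucleolar chaperone, was at 101 and 123 CPM, against 222, 251, 175 and 211 CPM unstimulated (log2 -0.88 ± 0.18). The libraries did not overlap in these 3 genes. Ncl, nucleolin, was at 1785 and 1305 CPM, against 1258, 1225, 1051 and 1233 CPM unstimulated and was not called (log2 0.36 ± 0.14). Gnl3, nucleostemin, was called lower at 86.4 and 47.6 CPM, against 116, 136, 122 and 85.6 CPM unstimulated, where library 1 overlapped the unstimulated range; without library 4 it was at -0.42 (edgeR adjusted p = 0.529, against -0.98 ± 0.26 with it). Of 25 tested genes of the ATF4 response and of serine and folate metabolism, 0 were higher and 4 lower, with 3 lower without library 1 and 2 without library 4. Slc7a1, the arginine and lysine importer, was at 105 and 115 CPM, against 233, 184, 179 and 188 CPM unstimulated (log2 -0.80 ± 0.17, edgeR adjusted p = 0.00115).

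Interferon-stimulated genes moved in both directions, 7 higher and 4 lower of 32 tested, with 2 lower without library 1 or unstimulated library 3 and 1 lower without library 4. Rsad2 (viperin), an antiviral enzyme, was at 63.9 and 48.9 CPM at 4 h, against 10.2, 13.7, 10.1 and 5.52 CPM unstimulated (log2 2.42 ± 0.34, edgeR adjusted p = 4.69e-06). Isg20, an antiviral exonuclease, was at 124 and 77.7 CPM, against 20.3, 21.2, 35.2 and 9.67 CPM unstimulated (log2 2.00 ± 0.31), and the GTPase Gbp7 at 628 and 447 CPM, against 295, 277, 256 and 279 CPM unstimulated (log2 0.93 ± 0.13). Samhd1, a nucleotide hydrolase that restricts viruses, went the other way, at 124 and 110.2 CPM, against 206, 195, 203 and 182 CPM unstimulated (log2 -0.78 ± 0.12). All 4 genes had groups without overlap. The sensor Ddx58 (RIG-I) was not called (log2 0.16 ± 0.13). Both chains of the type I interferon receptor were lower, Ifnar1 at 52.6 and 62.6 CPM against 103, 115, 121 and 106 CPM unstimulated, and Ifnar2 at 30.1 and 72.7 CPM against 109, 119.8, 160.1 and 108 CPM unstimulated. Ifnar1 was at -0.90 ± 0.21, and -1.09 without library 4 (edgeR adjusted p = 0.0603), and Ifnar2 at -1.06 ± 0.24, and -0.81 without library 1 (edgeR adjusted p = 0.0534) or -2.07 without library 4.

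Genes of the cytoskeleton and matrix were 6 higher and 1 lower of 36 tested. Myh9, the heavy chain of non-muscle myosin IIA, was at 985 and 1038 CPM at 4 h, against 532, 522, 451 and 485 CPM unstimulated (log2 1.03 ± 0.14, edgeR adjusted p = 4.07e-06). Timp2, an inhibitor of metalloproteinases, was at 383 and 344 CPM, against 189, 147, 144 and 160.2 CPM unstimulated (log2 1.17 ± 0.25), and Plau, urokinase, was at 33.8 and 38.8 CPM, against 7.62, 6.24, 4.19 and 6.91 CPM unstimulated (log2 2.59 ± 0.42). Mmp9 was the member called lower, so a protease and an inhibitor of such proteases moved in opposite directions. Among genes of glycolysis and the hypoxia response, 6 of 33 tested were higher and 2 lower. The list median was 0.24, and -0.07 without library 4. Vegfa, the endothelial growth factor, was at 33.8 and 91.4 CPM, against 34.3, 32.5, 29.3 and 29.0 CPM unstimulated, and Ankrd37 at 48.9 and 132 CPM, against 24.1, 33.7, 39.4 and 34.5 CPM unstimulated. Without library 4 their log2 changes were 0.12 (edgeR adjusted p = 0.935) and 0.54 (edgeR adjusted p = 0.626), against 1.24 ± 0.32 and 1.64 ± 0.32 with it. The 2 lower genes were 0 without library 1 and 1 without unstimulated library 3.

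In cytokine signalling, 15.8% of tested genes from the interleukin-15 receptor to STAT5 were called. For CIS, the other SOCS genes and their partners it was 33.3%, and their counts without single libraries are given at the end. Over all genes tested 6.90% were called higher and 5.03% lower. Socs2, a suppressor induced by STAT5, was at 78.9 and 101 CPM at 4 h, against 135, 159.8, 183 and 169 CPM unstimulated (log2 -0.78 ± 0.20). Of 19 tested genes from the interleukin-15 receptor to STAT5, 2 were higher, Cish and Bcl2, and 1 lower, Socs2; without library 1 the counts were 1 and 0, Cish was not called and Socs2 was at -0.69 (edgeR adjusted p = 0.0714). Without library 4 they were 4 and 2, and without unstimulated library 4 they were 2 and 2.

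Set beside these changes was the response of cells labelled TGFBRII KO, compared over their own 3 libraries at 4 h and 3 unstimulated. The label was not checked, so whether the changes needed the type II receptor was not tested. In those cells 4.57% of genes tested were called higher at 4 h and 3.45% lower. The wild-type response minus theirs differed from 0 for 778 genes, 3.61% of genes tested in the higher direction and 3.96% in the lower (edgeR's test of the difference). Of the 681 genes higher in wild-type cells, 36 were also higher there, which is 5.29% of the wild-type list and 7.93% of theirs, and 24 were lower. Of the 491 lower genes, 82 were also lower there, 16.7% and 24.0% of each list, and 37 were higher. The count of 778 differing genes was 514 without wild-type 4 h library 1.

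Of the 23 tested feedback genes, 0 were called in either direction in the cells labelled TGFBRII KO. Pmepa1 was there at 6.02, 56.2 and 16 CPM at 4 h, against 15.2, 10.8 and 8.51 CPM unstimulated, and library 2 at 4 h was the highest of its group. The wild-type response exceeded theirs by 3.68 ± 0.60 on the log2 scale (edgeR adjusted p = 0.000122). Ski was there at 62.6, 92.2 and 76.6 CPM at 4 h, against 89.9, 90.4 and 103 CPM unstimulated, a difference in response of 2.31 ± 0.19 (edgeR adjusted p = 9.68e-10). Neither gene approached its wild-type level at 4 h in any of these libraries. The differences were 3.09 ± 0.36 for Tgfb3, 4.52 ± 0.56 for Nt5e, 2.49 ± 0.42 for Ighm and 1.69 ± 0.30 for Smad7. Of the same list, 8 genes differed in the higher direction and 0 in the lower.

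Some genes moved in opposite directions in the 2 genotypes. Abcg1 fell in the cells labelled TGFBRII KO, at 31.3, 23.0 and 18.3 CPM at 4 h against 49.4, 54.2 and 43.7 CPM unstimulated, so that the responses differed by 2.89 ± 0.30 (edgeR adjusted p = 7.28e-08). Itga1 fell there too, at 41.0, 74.9 and 73.2 CPM against 105, 111 and 114 CPM unstimulated, a difference of 1.36 ± 0.23 (edgeR adjusted p = 0.000211). Cd44 was at 109.6, 124 and 124 CPM against 206, 195 and 204 CPM unstimulated, a difference of 1.38 ± 0.21, and Mylip differed by 1.60 ± 0.29. Ribosome biogenesis genes ran the other way. Nolc1 rose there to 302, 346 and 419.5 CPM, against 168, 127 and 151 CPM unstimulated, a difference of -2.14 ± 0.23 (edgeR adjusted p = 1.79e-07). Of the 33 tested genes of that list, 26 were higher at 4 h in the cells labelled TGFBRII KO, and 22 differed between the responses, all with the wild-type response lower, including Gnl3 at -2.29 ± 0.32 and Nop58 at -1.63 ± 0.16. Serpinb9 also rose there, at 638, 585 and 593 CPM against 406.5, 472.5 and 445 CPM unstimulated, a difference of -1.42 ± 0.20.

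**Figure D4:**
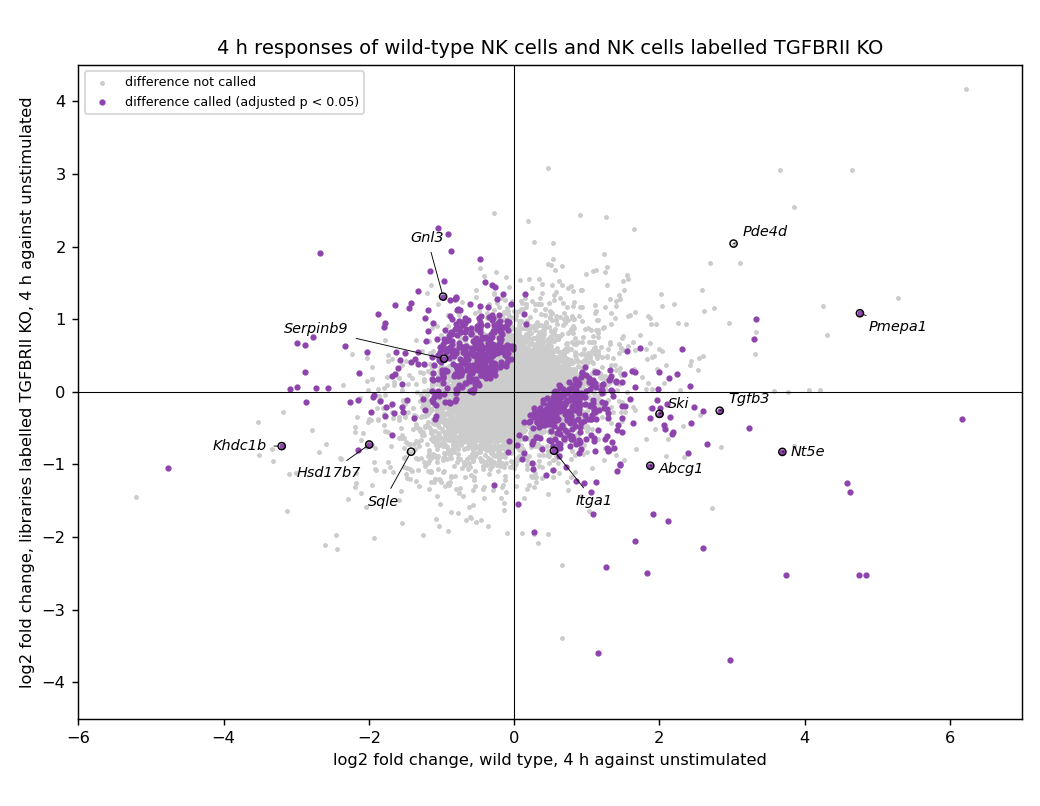
Log2 fold changes at 4 h of 9751 autosomal genes in wild-type cells (horizontal) and in cells labelled TGFBRII KO (vertical), with genes whose 2 responses differ at an adjusted p under 0.05 in purple and 12 genes named. Tgfb3, Nt5e and Ski lie far to the right near or below the horizontal axis, and Pmepa1 lies far to the right above it. Gnl3 lies at upper left, and Sqle and Hsd17b7 lie at lower left, since both fell in each genotype.

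Other early changes were also called in the cells labelled TGFBRII KO. Cholesterol synthesis was the clearest such list, with 12 of 19 tested enzymes lower there and 13 in wild-type cells, and list medians of -0.60 there and -0.74 in wild-type cells. Sqle was there at 79.5, 92.2 and 96.0 CPM at 4 h, against 161, 156 and 158 CPM unstimulated, and the difference in response of -0.59 ± 0.19 was not called (edgeR adjusted p = 0.0853). Of the 19 enzymes 1 differed between the responses, Hsd17b7, where the wild-type fall was deeper by -1.27 ± 0.27 (edgeR adjusted p = 0.00249). Syna, a retrovirus-derived fusion protein, fell in both genotypes, by -2.45 ± 0.44 in wild-type cells and to 19.3, 14.4 and 24.0 CPM against 76.0, 71.1 and 85.0 CPM unstimulated in the cells labelled TGFBRII KO. By range of CPM alone, other large falls were also seen there, as in Khdc1b (66.2 to 113 against 153 to 164 unstimulated) and Bcl11b (79.2 to 122 against 171 to 189.5). The same held for C5ar1 (15.8 to 28.9 against 38.6 to 60.75), Mmp9 (227.5 to 247 against 341 to 410) and Dusp7 (54.9 to 66.2 against 78.3 to 98.4). For Ccl9, Hbegf and Grasp the ranges at 4 h and unstimulated overlapped there. Nfil3 and Pde4d rose in both genotypes, with Nfil3 at 149, 168 and 154 CPM against 100.0, 106 and 80.2 CPM unstimulated in the cells labelled TGFBRII KO. Of 33 tested genes of glycolysis and the hypoxia response 6 were higher there and 1 lower. The wild-type response was higher for 0 of these genes and lower for 3. Vegfa was there at 83.1, 108 and 81.2 CPM at 4 h, against 17.7, 35.0 and 19.4 CPM unstimulated. Of 30 tested mitosis genes 7 were lower there and 4 in wild-type cells, with list medians of -0.36 and -0.41, and 0 differed between the responses. Both genotypes share the exposure to TGFB1 and the time in culture, and the part of either in these changes was not tested. Without library 4 of wild-type cells, Syna was at -3.40 in wild-type cells and still called (edgeR adjusted p = 0.0151), while the wild-type calls of Nfil3 and Pde4d were lost.

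The response of cells labelled CIS KO, over their own 4 libraries at 4 h and 4 unstimulated, did not differ detectably from the wild-type response. Called in those cells were 7.76% of genes tested as higher and 6.30% as lower. The difference between the 2 responses was called for 0 of 10275 genes (0%) by edgeR and 0 by DESeq2, with 874 and 623 genes at an unadjusted p under 0.05. The 4 h response of the 2 genotypes shared 405 higher genes, 59.5% of the wild-type list and 51.9% of the list from cells labelled CIS KO, and 231 lower genes, 47.0% and 37.1%, and 0 genes were called in opposite directions. Pmepa1 was there at 569, 679.9, 699.9 and 667 CPM at 4 h, against 19.3, 18.6, 25.5 and 24.97 CPM unstimulated, and Nt5e at 124, 109, 148 and 158 CPM, against 0, 7.42, 5.89 and 9.71 CPM unstimulated. Both lie beside the wild-type values. With 2 wild-type libraries at 4 h, a count of 0 does not show that the responses are alike.

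The libraries of wild-type cells after 24 h of TGFB1 give the later course of the early changes. Between 24 h and 4 h, 3.00% of genes tested were higher at 24 h and 4.57% lower. These comparisons share the 2 libraries at 4 h, so values are given side by side and no overlap is counted. The number of genes called between the 2 times was 778, and 390 without 4 h library 1. Nt5e, at a mean of 9.99 CPM unstimulated, was at 134 CPM at 4 h and 63.3 ± 10.5 CPM at 24 h (SD, n = 4), with a later change of -1.01 ± 0.21 on the log2 scale (edgeR adjusted p = 0.00157). Tgif1 was at means of 60.2, 136 and 58.9 CPM unstimulated, at 4 h and at 24 h, so its mean at 24 h lay near that of unstimulated cells. Rsad2 followed the same course, at means of 9.87, 56.4 and 11.6 CPM. Rgs2 kept part of its rise, at means of 62.3, 195 and 113 CPM.

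Other genes kept or extended their early change. Pmepa1 was at means of 22.8, 623 and 469 CPM unstimulated, at 4 h and at 24 h, and its later change of -0.40 was not called (edgeR adjusted p = 0.206). Ldlrad4 was at means of 8.95, 85.2 and 94.2 CPM. Pacsin1 rose further, to 156 ± 21.3 CPM at 24 h (SD, n = 4), against a mean of 70.1 CPM at 4 h. Itgae, not called at 4 h, was at 67.1, 112, 119 and 107 CPM at 24 h, against 7.52 and 7.52 CPM at 4 h (log2 3.72 ± 0.44, edgeR adjusted p = 7.18e-07). Between 24 h and 4 h 28 of 30 tested mitosis genes and 18 of 28 tested replication genes were lower at 24 h, and Top2a was at 229 ± 49.2 CPM at 24 h, against 582 and 592 CPM at 4 h. Of the early falls, Hsd17b7 recovered in part, at means of 166, 39.5 and 99.8 CPM, and Bcl11b at means of 119, 28.8 and 74.6 CPM, whereas Mmp9 fell on, at means of 222, 80.2 and 42.7 CPM.

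**Figure D5:**
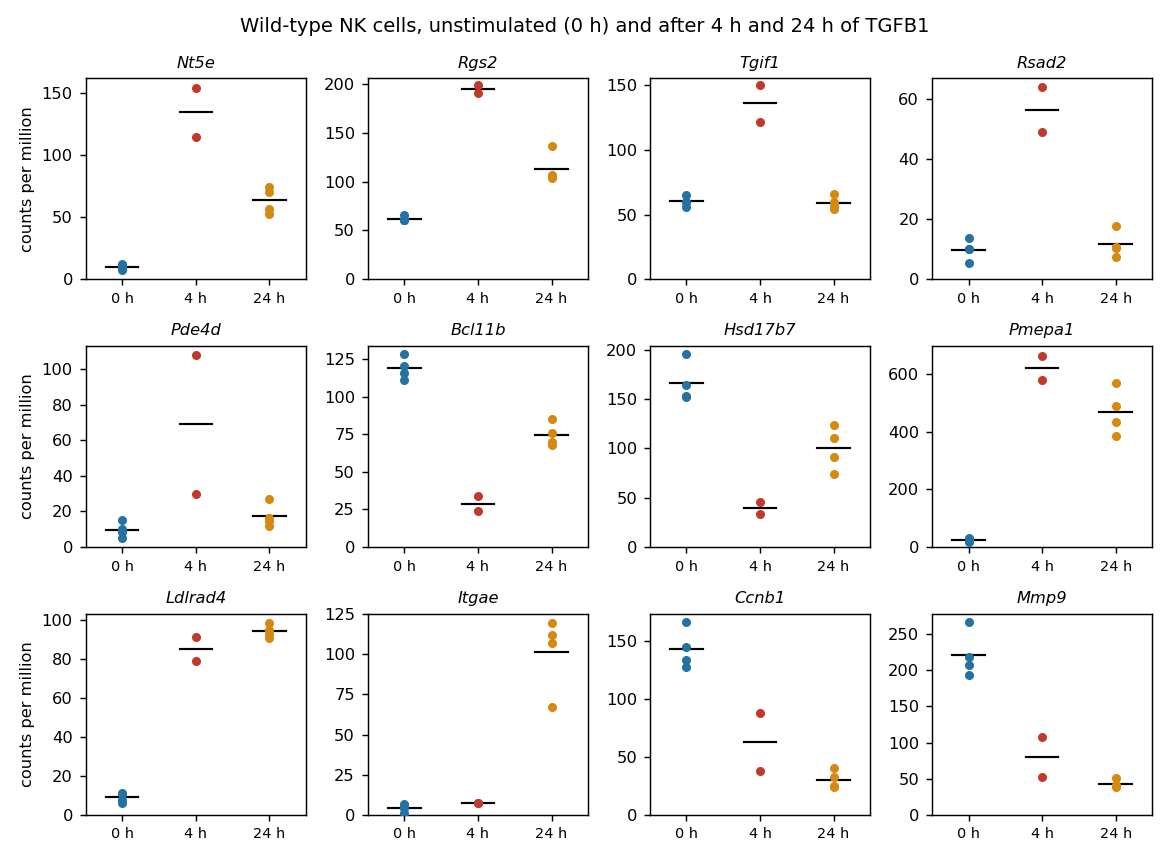
CPM in wild-type NK cells without stimulation (0 h, 4 libraries) and after 4 h (2 libraries) and 24 h (4 libraries) of TGFB1 for 12 genes, 1 point a library and a line at the mean, each panel with its own axis from 0. Nt5e, Rgs2, Tgif1, Rsad2 and Pde4d peak at 4 h, Bcl11b and Hsd17b7 are lowest at 4 h, Pmepa1 and Ldlrad4 stay high, and Itgae is high only at 24 h.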

How the data were processed

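RNA-seq read counts per gene were analysed for 31 libraries of sorted mouse NK cells, and the results rest on 2 wild-type libraries at 4 h of TGFB1 and 4 unstimulated. The deposited table holds raw counts of 27179 genes under Entrez identifiers. Per the submitters' processing notes, FastQC, Trimmomatic, Subread, featureCounts, Picard and SAMtools were used with the mm10 genome; for versions, strand setting, duplicate handling and reads shared by genes, the entry is "not given in the sources used here". Identifiers were matched to symbols in the RefSeq table of GRCm38.p6 (25275 of 27179); those without a symbol held 0.9575% of counts. Genes were filtered with filterByExpr over the 9 groups, which left 10275, scaled by TMM and tested with edgeR 4.0.16 (R 4.3.3) by the quasi-likelihood F-test, and p-values were adjusted over all of these genes (Benjamini-Hochberg, threshold 0.05). All 31 libraries entered 1 fit, so the spread of the 2 libraries at 4 h is borrowed in part from the other groups. The standard error is the log2 change divided by the square root of F. CPM use TMM-scaled library sizes. Ratios for genes with 1 to 3 counts in a group have exact 95% intervals. DESeq2 1.42.0, other scalings and filters, a depth covariate, a replicate block and each library left out in turn were alternatives. The fit was tested on simulated data. Depth ran from 297561 to 1403005 counts per library, which limits low genes most; intervals cover counting error only. The labels number biological replicates but do not tie them to animals. The p-values set each change against a spread between libraries estimated over all 31, which is not known to be that between animals. Counts of unstimulated libraries 2 and 4 differed by no more than sampling noise over all genes (chi-square per degree of freedom 0.907, against 1.15 to 2.95 for the other pairs), but 4 of 9956 genes differed beyond it by an exact binomial test (adjusted p under 0.05). They were kept as separate libraries, and summed into 1 in an alternative chosen after seeing the data.

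The genes named are the targeted genes, up to 20 of the largest changes in each direction with at least 5 mean CPM and no overlap, up to 6 called and 2 uncalled members of each list, and up to 8 genes for each further comparison. Those named are a part of the genes these rules give. Smad7, Klf10, Smurf2, Itgae, Tbx21, Prf1, Ptger2, Rgs18, Gpr65, Srebf1, Npm1, Ccrl2, Tmem176b, Slc29a1 and Zmat3 were named after their values were seen. Members and the 38 gene lists were chosen with earlier results of these data known. Genes off the autosomes, 347 of those tested, and 177 without a chromosome are not described, and results for some genes are not reported here.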

Additional observations from a re-analysis of the deposited data

Results flagged for a closer look

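Of 262 groups of 4 libraries, each for 1 gene, 12 (4.58%) held a library far from the other 3, where chance gives about 1 in 20. Among unstimulated wild-type libraries, Cd40 was at 4.14 CPM in library 4, against 1.25 to 1.68 CPM in the others. Rgs2 was at 66.2 CPM in library 3, against 60.8 to 61.2 CPM. Serpinb9 was at 492 CPM and Bmf at 35.6 CPM in library 1, against 417 to 421 CPM and 54.5 to 56.6 CPM. In unstimulated library 3, Tyrobp was at 308 CPM, against 427 to 439 CPM, Ncl at 1051 CPM, against 1225 to 1258 CPM, Npm1 at 351 CPM, against 436 to 448 CPM, and Dusp7 at 52.0 CPM, against 67.4 to 68.6 CPM. Ptger2 was at 76.0 CPM in library 4, against 62.4 to 63.7 CPM. After 24 h, Smurf2 was at 149 CPM in library 3, against 118 to 121 CPM in the others, and Rgs2 at 137 CPM in library 4, against 103 to 107 CPM. Srebf1 was at 57.7 CPM in library 1, against 133 to 142 CPM.

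The 4 h response of wild-type cells differed from that of cells labelled TGFBRII KO for 778 genes by edgeR's test of the difference. On the log2 scale, the wild-type response was higher by 3.68 for Pmepa1, 2.31 for Ski, 3.09 for Tgfb3, 4.52 for Nt5e, 2.89 for Abcg1, 1.36 for Itga1, 2.03 for Bmf, 2.49 for Ighm, 1.69 for Smad7, 1.60 for Mylip and 1.38 for Cd44. The difference was -1.01 for Ncr1, -1.27 for Hsd17b7, -1.63 for Nop58, -2.14 for Nolc1, -2.29 for Gnl3 and -1.42 for Serpinb9. Adjusted p for these 17 genes ran from 9.68e-10 for Ski to 0.00249 for Hsd17b7.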

How the results depend on the processing

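The 1226 genes called at 4 h in wild-type cells were 722 when only the groups compared were fitted, 662 with a replicate block, 898 with DESeq2, 1118 with unstimulated libraries 2 and 4 as 1 library, and 583 to 1264 with each library left out. The 778 genes whose response differed from cells labelled TGFBRII KO were 491 with DESeq2, 485 with the block and 514 to 789 with a library left out. The 778 genes called between 24 h and 4 h were 500 with DESeq2, 198 with only the groups compared, 487 with the block and 390 to 799 with a library left out. The 0 genes that differed from cells labelled CIS KO were 68 with no filter on low counts and 0 to 1 with a library left out. Gzmc turned to -0.0045 with depth as a covariate. The fits on fewer libraries estimate the spread from fewer samples; the cause of the other shifts was not tested. Of 111 called genes named, 65 kept the call under every alternative, 23 lost it without 4 h library 1 and 31 without library 4. With library size as the only scaling, higher and lower counts were 5 and 5 for activating receptors and 5 and 5 for glycolysis and hypoxia genes. They were 2 and 4 for the sterol and LXR targets, 0 and 9 for replication genes, and 3 and 3 for G1 genes. They stayed at 9 and 0 for the feedback genes and 0 and 13 for cholesterol synthesis.

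Replicate numbers were not shown to pair libraries. The correlation of deviations from group means between wild-type libraries at 4 h and unstimulated was 0.08 for number 1 and -0.14 for number 4. The deviations of 2 libraries from their mean mirror each other, so these values are not separate checks and cannot decide pairing at 4 h. Over all 3 times, same-numbered pairs had correlations of -0.39 to 0.11 in wild-type cells (8 pairs), 0.02 to 0.20 in cells labelled TGFBRII KO (9 pairs, all above 0 and 4 over 0.1) and -0.23 to 0.25 in cells labelled CIS KO (12 pairs). Against the libraries of another time, a library correlated best with its own number in 4 of 16, 14 of 18 and 5 of 24 comparisons in wild-type, TGFBRII KO and CIS KO cells, which for TGFBRII KO is a hint from the data and not from the design. The replicate block took the call from 22 of the named genes. With 2 libraries at 4 h, 1 of them of 297561 counts, small changes and low genes are the least certain.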

Other observations

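The remaining lists had these counts at 4 h in wild-type cells, by edgeR's test adjusted over all genes tested, where 6.90% of all genes were called higher and 5.03% lower. Of 20 tested chemokines and cytokines 4 were higher and 1 lower, with a median log2 change of 0.43, and 2 were higher without 4 h library 1. Of 25 tested members of the TNF superfamily 2 were higher and 3 lower, but 0 and 1 without 4 h library 1 or unstimulated library 3, and 1 and 0 without 4 h library 4. Of 21 tested genes of interleukin-12, interleukin-18 and interferon-gamma signalling 1 was higher and 3 lower, with a median of -0.17, and the counts were 0 and 1 without 4 h library 1. Among CIS, the other SOCS genes and their partners, 4 of 15 tested were higher and 1 lower, against 1 and 0 without 4 h library 1 and 2 and 1 without 4 h library 4. Of 33 tested G1 cyclins, CDK inhibitors and MYC-related genes 4 were higher and 0 lower, and 2 were higher without either 4 h library. Of 12 tested markers of circulating mature NK cells 1 was higher and 0 lower, with 0 higher without 4 h library 1 or unstimulated library 3 and 2 without 4 h library 4. Of 27 tested genes of oxidative phosphorylation 0 were higher and 1 lower, with a median of 0.25, while 0 were called without 4 h library 1 or unstimulated library 3, and 8 were higher and 0 lower without 4 h library 4.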
